A study of Alligator mississippiensis with 4 samples.

Results

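The insulin-like growth factor (IGF) ligands, their receptors and the proteins named for binding IGFs or the IGF2 message were followed in the dermis of developing alligator overlapping scales. Members were chosen by gene symbol, with earlier results of these data known. Of 14 symbols that the family can carry under the rule (IGF1 and IGF2, IGF1R and IGF2R, IGFBP1 to IGFBP7, and IGF2BP1 to IGF2BP3), 9 had a row among the 10466 rows of the deposited table, and all 9 averaged 1 CPM (read counts scaled to library size) or more over the libraries. IGF1, IGF2, IGF2R, IGFBP2, IGFBP3, IGFBP4, IGFBP5, IGFBP7 and IGF2BP3 are described here, and there was no row under the symbols IGF1R, IGFBP1, IGFBP6, IGF2BP1 and IGF2BP2 in the table analysed here. Rows that carry only a gene number could not be matched.

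The samples were untreated alligator embryos (Alligator mississippiensis) from fertilized eggs, for which the labels name no genetic change. Skin of dorsal and of ventral overlapping scales was taken at Es22 (the bud stage) and at Es19 (the placode stage), its epidermis was removed, and RNA of the dermis was sequenced. The labels give 1 library for each of dorsal Es22, ventral Es22, dorsal Es19 and ventral Es19 dermis. The dermis here is bulk tissue, so fewer cells of a type and less RNA per cell cannot be told apart.

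IGF1 and IGF2 are secreted growth factors that act through a receptor tyrosine kinase, IGF1R, and through the insulin receptor. IGFBP1 to IGFBP6 hold the ligands in tissue and blood with high affinity and can restrain or prolong their action, while proteases release them. Much of this is known from mammals, where IGF2 drives growth of the embryo and is cleared by IGF2R. In skin, dermal fibroblasts are a known source of IGF ligands and of several IGFBPs.

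The table held from 10722075 to 13220853 reads for a library, and 1 read was worth 0.0679 to 0.103 CPM. COL1A1 and COL1A2, which encode type I collagen, took 33.4% and 31.0% of the reads in dorsal and ventral Es22 dermis, against 20.1% and 10.98% at Es19. Epidermal markers (8 with a row, of 25 listed) summed to 930.3 CPM in dorsal and 226 CPM in ventral Es22 dermis, against 36.8 and 40.4 CPM at Es19. CPM is not corrected for transcript length, so differences are read below between libraries of a gene. Where a gene is called low or the highest of its list, this refers to uncorrected CPM alone.

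Between stages the family leaned toward Es22. Of the 9 members, 6 were higher at Es22 than at Es19 in both regions, whatever the size (IGF1, IGF2, IGF2R, IGFBP3, IGFBP4 and IGFBP7), beside 34.3% of all 10236 rows tested. IGF2BP3 and IGFBP5 were lower at Es22 in both regions, beside 33.3% of all rows, and IGFBP2 was higher in dorsal dermis only. The directions of IGFBP4 in ventral dermis and of IGFBP5 in dorsal dermis were not beyond counting error. The members' median log2 difference, Es22 over Es19 on the log2(CPM + 1) scale, was 0.80 in dorsal and 0.64 in ventral dermis, beside medians over all rows of -0.0057 and 0.014. The 6 and 2 genes were the same after rescaling the libraries by the median ratio or by the upper quartile. IGF1 reached a mean of 1 CPM through its Es22 values, so its direction is no independent support. With a mean of at least 5 CPM, which left out IGF1, 5 of 8 members were higher at Es22 in both regions. In dorsal Es22 dermis 4 members had their highest level and in ventral Es22 dermis 3, while 5 members had their lowest level in dorsal Es19 dermis. The matching shares over all rows were not computed, so these counts describe the members only.

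**Figure D1:**
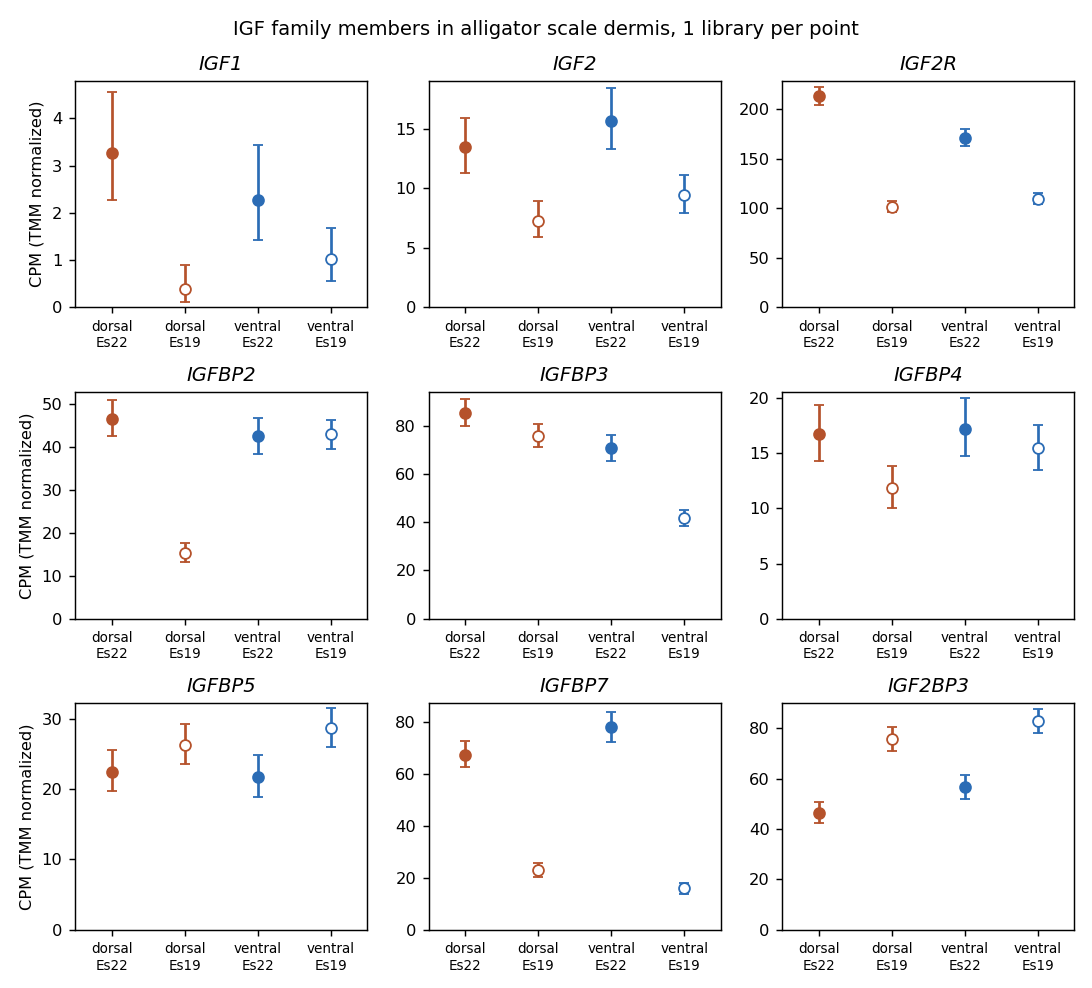
CPM (TMM normalized) of each of the 9 members in the 4 libraries, dorsal in brown and ventral in blue, Es22 filled and Es19 open. Bars are exact 95% Poisson intervals of the read counts (counting error only). IGFBP7 stands at 67.3 and 77.9 CPM at Es22, above 22.8 and 15.9 CPM at Es19, and IGFBP2 is low in dorsal Es19 dermis alone.

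Of the ligands, IGF2, the main fetal IGF of mammals, had 13.5 CPM in dorsal Es22 dermis and 15.7 CPM in ventral Es22 dermis, against 7.28 CPM (dorsal) and 9.43 CPM (ventral) for Es19. Both Es22 values lay above both Es19 values. How many of all rows were ordered by stage in this way was not computed. Here and for the members below, such an order describes the gene only. The ratio of Es22 over Es19 was 1.85 in dorsal dermis (95% interval 1.41 to 2.43) and 1.66 in ventral dermis (95% interval 1.31 to 2.11), where each interval comes from an exact binomial test of the recovered reads and covers only counting error, as reads lacking molecular identifiers are not independent molecules. Dorsal over ventral, the ratio was 0.858 at Es22 (95% interval 0.677 to 1.09) and 0.771 at Es19 (95% interval 0.587 to 1.01), so that the regions were not told apart beyond counting error at either stage. IGF2 is on the list of chicken feather-associated genes that the study carried over to alligator.

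The other ligand, IGF1, which in mammals mediates much of the growth response to growth hormone, was near the lower end of the table. It had 3.27 CPM (34 reads) in dorsal Es22 dermis and 2.27 CPM (22 reads) in ventral Es22 dermis, against 0.387 CPM (5 reads, dorsal) and 1.02 CPM (15 reads, ventral) for Es19. Both Es22 values were above both Es19 values, though all rested on few reads. IGF1 also reached a mean of 1 CPM over the libraries through these Es22 values. Es22 over Es19, the ratio was 8.44 in dorsal dermis, with a wide counting interval of 3.28 to 27.6, and 2.23 in ventral dermis (95% interval 1.11 to 4.62). A count of 0 would allow up to 3 reads, or 0.204 to 0.310 CPM depending on the library, so the lowest IGF1 value lay just above that limit.

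IGF2R, the mannose 6-phosphate receptor that carries lysosomal enzymes and in mammals also takes IGF2 to lysosomes, had 213 CPM in dorsal Es22 dermis and 171 CPM in ventral Es22 dermis, against 102 CPM (dorsal) and 109.6 CPM (ventral) for Es19. The Es22 and Es19 values did not overlap. Its ratio of Es22 over Es19 was 2.09 in dorsal dermis (95% interval 1.95 to 2.24) and 1.56 in ventral dermis (95% interval 1.46 to 1.67). The region ratio, dorsal over ventral, was 1.24 at Es22 (95% interval 1.17 to 1.33) and 0.928 at Es19 (95% interval 0.862 to 0.999), on opposite sides of 1. In dorsal dermis IGF2R, IGF1, IGFBP2 and IGFBP7 were at least 2-fold higher at Es22 on the log2(CPM + 1) scale, as were 8.15% of all rows. Of these, IGF1 passed the filter on low values through Es22.

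Among the binding proteins IGFBP7 stood out. IGFBP7 binds IGFs only weakly and is known in mammals from vessel walls and from senescent and stromal cells. It had 67.3 CPM in dorsal Es22 dermis and 77.9 CPM in ventral Es22 dermis, against 22.8 CPM (dorsal) and 15.9 CPM (ventral) for Es19. Both Es22 libraries were above both Es19 libraries, with no overlap, an order whose share over all rows was not computed. The ratio of Es22 over Es19 was 2.95 in dorsal dermis (95% interval 2.57 to 3.39) and 4.91 in ventral dermis (95% interval 4.23 to 5.71), and on the log2(CPM + 1) scale IGFBP7 was the 1 member to be higher by 2-fold or more in both regions, beside 3.26% of all rows. In plain CPM the low ligand IGF1 was also over 2-fold higher in both. No member was at least 2-fold lower at Es22 in both regions, beside 0.537% of all rows.

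IGFBP2, a binder of both ligands that in mammals also touches integrins, showed a different pattern. It had 46.6 CPM in dorsal Es22 dermis and 42.5 CPM in ventral Es22 dermis, against 15.3 CPM (dorsal) and 43.0 CPM (ventral) for Es19. The dorsal Es19 library was low and the other 3 were not told apart beyond counting error. At Es19 the ratio of dorsal over ventral was 0.357 (95% interval 0.303 to 0.419), and on the log2(CPM + 1) scale IGFBP2 was the 1 member at least 2-fold lower in dorsal dermis at this stage, as were 2.84% of all rows. In plain CPM the ratio of IGF1 at Es19 was 0.380, with a counting interval of 0.108 to 1.10 that includes 1. At Es22 the same ratio was 1.10 (95% interval 0.959 to 1.25). IGFBP2 is on the list of chicken scale-associated genes that the study carried over to alligator.

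IGFBP5, a binder that also attaches to extracellular matrix, lies next to IGFBP2 among the protein-coding genes of the RefSeq assembly rAllMis1, but was not low in dorsal Es19 dermis. IGFBP5 had 22.5 CPM in dorsal Es22 dermis and 21.8 CPM in ventral Es22 dermis, against 26.3 CPM (dorsal) and 28.7 CPM (ventral) for Es19. These values span a ratio of 1.32 from the highest to the lowest library, the narrowest range in the family. No library was told apart from the next in order beyond counting error, but the lowest and the highest were, with a ratio of Es22 over Es19 in ventral dermis of 0.758 (95% interval 0.640 to 0.897). In dorsal dermis that ratio was 0.854 (95% interval 0.720 to 1.01). IGFBP5 in dorsal Es19 dermis lay at 0.917 of its ventral value (95% interval 0.792 to 1.06), where IGFBP2 lay at 0.357.

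IGFBP3, the main carrier of IGFs in mammalian blood, had 85.4 CPM in dorsal Es22 dermis and 70.6 CPM in ventral Es22 dermis, against 75.6 CPM (dorsal) and 41.7 CPM (ventral) for Es19. It was the 1 member higher in dorsal than in ventral dermis at both stages, whatever the size, beside 24.5% of all rows. The ratio of dorsal over ventral was 1.21 at Es22 (95% interval 1.09 to 1.34) and 1.81 at Es19 (95% interval 1.64 to 2.01). In ventral dermis IGFBP3 was 1.69-fold higher at Es22 (95% interval 1.51 to 1.89), and in dorsal dermis 1.13-fold higher (95% interval 1.03 to 1.24). The stage ranges overlapped, since dorsal Es19 dermis lay above ventral Es22 dermis. In rAllMis1 the protein-coding gene next to IGFBP3 is IGFBP1, which had no row.

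IGFBP4, a binder that restrains IGF action until the protease PAPPA cuts it, had 16.7 CPM in dorsal Es22 dermis and 17.2 CPM in ventral Es22 dermis, against 11.8 CPM (dorsal) and 15.5 CPM (ventral) for Es19. Dorsal Es19 dermis was again the lowest library, and the other 3 were not told apart beyond counting error. Dorsal over ventral, the ratio was 0.970 at Es22 (95% interval 0.780 to 1.21) and 0.765 at Es19 (95% interval 0.620 to 0.944). Es22 over Es19, it was 1.41 in dorsal dermis (95% interval 1.13 to 1.77) and 1.11 in ventral dermis (95% interval 0.907 to 1.37).

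IGF2BP3 does not bind the ligands. It is an RNA-binding protein of embryonic tissues that was named for its binding to IGF2 mRNA in mammals. It had 46.4 CPM in dorsal Es22 dermis and 56.6 CPM in ventral Es22 dermis, against 75.7 CPM (dorsal) and 82.9 CPM (ventral) for Es19, so that both Es22 values lay below both Es19 values, the opposite of the order of IGF2. The ratio of Es22 over Es19 was 0.613 in dorsal dermis (95% interval 0.549 to 0.684) and 0.683 in ventral dermis (95% interval 0.617 to 0.756). IGF2BP3 was also lower in dorsal than in ventral dermis at both stages, with ratios of 0.819 at Es22 (95% interval 0.723 to 0.927) and 0.913 at Es19 (95% interval 0.838 to 0.994). IGF2 and IGFBP4 had the same sign at both stages, which made 3 of the 9 members, beside 25.3% of all rows. For IGF2 at both stages and for IGFBP4 at Es22 the difference was within counting error.

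**Figure D2:**
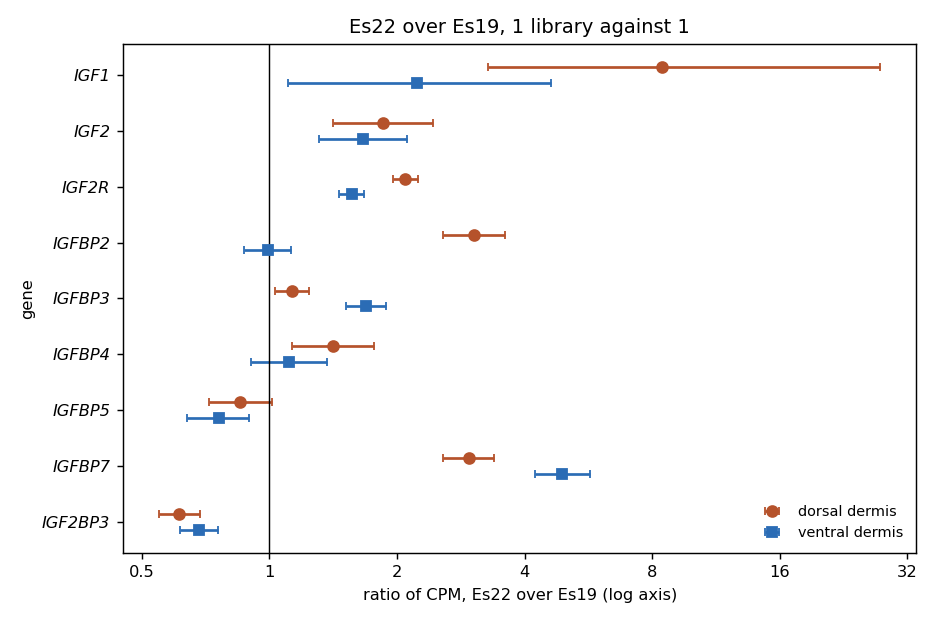
Ratio of CPM at Es22 over Es19 for each member on a log axis, in dorsal (circles) and ventral dermis (squares). Bars are exact binomial 95% intervals, counting error only. IGFBP7 lies at 2.95 and 4.91, IGF2BP3 at 0.613 and 0.683, and IGFBP2 at 3.04 in dorsal but 0.990 in ventral dermis.

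With 1 library for each region and stage, no difference within a region or within a stage has a replicate check. The 4 libraries together allow a fit with region and stage as terms, run in limma over all 10236 rows on log2(CPM + 1), which leaves 1 residual degree of freedom. The departure of one region from the other then stands in for replicate error. In limma this error is drawn, for each row, toward a trend over all rows. Each standard error is thus partly borrowed from other genes and is not the gene's own departure alone. The p-values measure only the spread between these libraries, not that between replicates. On this scale the changes of genes with low CPM are understated. Between stages limma called 2.66% of all rows higher at Es22 and 0.469% lower (Benjamini-Hochberg adjusted p under 0.05). Of the 9 members IGFBP7 was called, as higher, and 0 were called lower.

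IGFBP7 rose by a log2 difference of 1.87 (standard error 0.22, limma adjusted p = 0.022), which ranked 162 from the top of 10236 rows. The call was lost without the dorsal Es22 library (log2 difference 1.98, adjusted p = 0.33), without the ventral Es22 library (1.77, adjusted p = 0.15) and without region as a term (1.87, adjusted p = 0.13), and it held under the other 9 alternatives. IGF2R came next by p, with a log2 difference of 0.85 (standard error 0.16, adjusted p = 0.057), and edgeR (quasi-likelihood test, recovered reads) gave it an adjusted p of 0.040. IGF2BP3 had a log2 difference of -0.62 (standard error 0.15, adjusted p = 0.097), IGF1 of 1.16 (standard error 0.32, adjusted p = 0.12) and IGF2 of 0.74 (standard error 0.23, adjusted p = 0.15) in limma. The value of IGF1 depended on the scale, at 0.45 with a pseudocount of 5, 1.94 with a pseudocount of 0.1 and 1.97 in edgeR. IGFBP2, with 1 library apart from the other 3, had a log2 difference of 0.76 with a standard error of 0.36 (adjusted p = 0.30), which was 0.050 without dorsal Es19 dermis and 1.48 without ventral Es19 dermis. IGFBP3, IGFBP4 and IGFBP5 had adjusted p-values from 0.25 to 0.49.

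**Figure D3:**
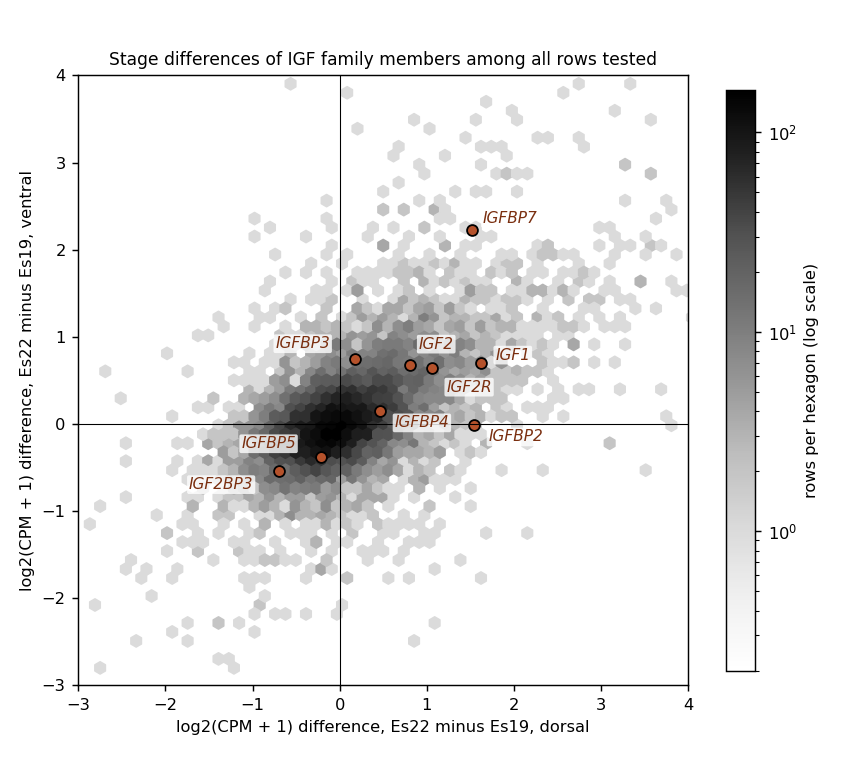
Difference of log2(CPM + 1), Es22 minus Es19, in dorsal dermis (x axis) and in ventral dermis (y axis) for all 10236 rows (grey, rows per hexagon on a log scale, 32 rows outside the axes) and for the 9 members (brown). IGFBP7 lies at 1.52 and 2.22, outside the dense centre, IGFBP2 lies on the horizontal axis at 1.54, and IGF2BP3 lies at -0.69 and -0.54.

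Marker sums of several other cell types were also higher at Es22. The 16 of 20 listed endothelial markers with a row summed to 865 CPM in dorsal and 659 CPM in ventral Es22 dermis, against 334 and 338 CPM at Es19, with median log2 differences between stages of 1.67 and 0.42. Skeletal muscle markers, 13 of 26 with a row, summed to 570.2 CPM (dorsal) and 1899 CPM (ventral) for Es22, against 238 and 303 CPM for Es19 in the same order. Red blood cell markers, 7 of 18 with a row, summed to 10723 CPM (dorsal) and 12964 CPM (ventral) for Es22, against 854 and 3177 CPM for Es19 in the same order. Dermal fibroblast markers, 9 of 11 with a row, summed to 439811 and 351177 CPM for Es22, against 189217 and 90912 CPM for Es19. Cell cycle genes, 13 of 20 with a row, were lower, at 1509 and 1847 CPM against 2299 and 2202 CPM. Cartilage and bone markers, 7 of 14 with a row, changed little in sum (604 and 479 CPM against 628 and 486 CPM). None of the listed markers with a row stood at 0 in any library. The part of these cell types and of epidermal cells in the result for IGFBP7 and for the other members was not tested.

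Between regions limma called 0 of the 9 members, beside 0.234% of all rows, and edgeR also called 0. An unadjusted limma p under 0.05 was reached by 1 of the 9 members (IGFBP3), beside 773 of the 10236 rows. No member was at least 2-fold apart between regions in the same direction at both stages, beside 1.06% of all rows. IGFBP3 had the highest region difference of the family, a log2 difference of 0.56, dorsal over ventral (standard error 0.19, limma adjusted p = 0.52), which was 0.19 without the ventral Es19 library and 0.93 without the ventral Es22 library. IGFBP2 had the lowest, -0.65 (standard error 0.36, adjusted p = 0.85), and without the dorsal Es19 library it turned to 0.12. Over the 9 members the median of dorsal over ventral in log2 was 0.044 at Es22 and -0.13 at Es19, beside medians over all rows of -0.0051 and -0.0012. The sign of the region difference was opposite at Es22 and Es19 for 5 members, near the 50.2% of all rows for which it was.

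**Figure D4:**
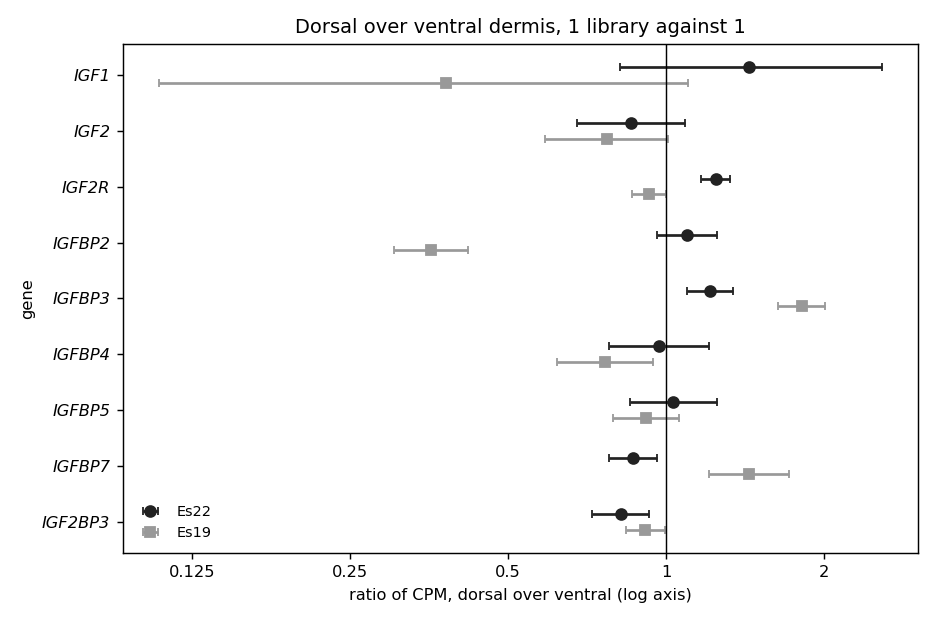
Ratio of CPM in dorsal over ventral dermis for each member on a log axis, at Es22 (black circles) and Es19 (grey squares). Bars are exact binomial 95% intervals, counting error only. IGFBP2 lies at 1.10 at Es22 and 0.357 at Es19, and IGFBP3 lies above 1 at both stages, at 1.21 and 1.81.

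At Es19, where IGFBP2 differed between regions, the marker lists gave these sums. Dermal fibroblast markers (9 of 11 with a row) summed to 189217 CPM (dorsal) and 90912 CPM (ventral), nearly all of it collagen. Endothelial markers stood at 334 CPM (dorsal) and 338 CPM (ventral), epidermal markers at 36.8 and 40.4 CPM, and smooth muscle and pericyte markers (5 of 10 with a row) at 141 and 209.7 CPM. Single endothelial markers ran both ways, such as TEK at 62.0 and 22.3 CPM and KDR at 19.7 and 50.7 CPM. The median log2 difference of the endothelial list at Es19, dorsal over ventral, was -0.59. Red blood cell markers, at 854 CPM (dorsal) and 3177 CPM (ventral), were the furthest apart of these lists in the direction of IGFBP2. Their part in the result was not tested.

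Around the family, a list of 14 genes chosen for a possible part in ligand availability was followed. Whether each acts on IGF ligands or IGFBPs in alligator dermis was not tested. Of the 14 genes, 8 had a row. Between stages limma called 1 of them lower and 1 higher at Es22, beside 0.469% and 2.66% of all rows. PAPPA2, a metalloprotease that cuts IGFBP3 and IGFBP5 in mammals, had 7.40 CPM in dorsal Es22 dermis and 14.1 CPM in ventral Es22 dermis, against 28.9 CPM (dorsal) and 32.8 CPM (ventral) for Es19, and fell by 1.498 on the log2 scale (standard error 0.24, limma adjusted p = 0.039). Its relative PAPPA had 24.6 CPM (dorsal) and 25.4 CPM (ventral) for Es22, against 38.1 and 45.7 CPM for Es19 in the same order (log2 difference -0.72, adjusted p = 0.097). Both proteases thus had their Es22 values below their Es19 values, though only that of PAPPA2 passed. The secreted serine protease PRSS23 had 644 CPM (dorsal) and 380.2 CPM (ventral) for Es22, against 271 CPM (dorsal) and 213 CPM (ventral) for Es19, and rose by 1.04 (standard error 0.17, adjusted p = 0.039). IGFALS, the acid-labile subunit that joins IGF1 and IGFBP3 in blood, was higher at Es22 by 2-fold or more in each region, from 21 and 32 reads at Es22 and 4 and 15 reads at Es19, with an adjusted p of 0.080. Between regions 0 of the 8 were called, beside 0.234% of all rows.

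Proteins that share the amino-terminal domain of the IGFBPs without being counted in the family formed a list of 13, of which 7 had a row. Between stages 1 was called, as higher at Es22, beside 2.66% of all rows. HTRA3, a secreted serine protease, had 311 CPM in dorsal Es22 dermis and 433 CPM in ventral Es22 dermis, against 40.6 CPM (dorsal) and 172 CPM (ventral) for Es19, and rose by 2.12 on the log2 scale (standard error 0.35, limma adjusted p = 0.041). Like IGFBP2, HTRA3 had its lowest value in dorsal Es19 dermis. The matricellular protein CTGF had 53.1 CPM (dorsal) and 126 CPM (ventral) for Es22, against 26.7 and 26.4 CPM for Es19 in the same order (log2 difference 1.59, adjusted p = 0.055), and IGFBPL1 ranged from 5.43 to 12.5 CPM. The median stage difference in limma was 0.48 over this list and -0.09 over the list of ligand availability, beside 0.0016 over all rows.

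Genes of signalling downstream of the receptors were followed on further lists. Of 37 genes of receptor and PI3K-AKT-mTOR signalling 17 had a row, and 0 were called in either comparison, with a median stage difference of 0.07. AKT1, the kinase at the centre of this pathway, had 164 CPM in dorsal Es22 dermis and 168 CPM in ventral Es22 dermis, against 159 CPM (dorsal) and 191 CPM (ventral) for Es19, and the adaptor IRS2 ranged from 76.7 to 103 CPM. RPS6, a ribosomal protein that the pathway phosphorylates, had the highest mean of the list at 3366 CPM. Of 22 genes of RAS-MAPK signalling 11 had a row and 0 were called. There was no row under the symbols INS, INSR, IRS1 and MTOR, so these lists cover the pathway in part. A count of 0 among these rows is near the 2.66% and 0.469% of all rows called higher and lower between stages.

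The lists of FOXO factors and targets, of the growth hormone axis and of regulators and targets of IGF2 and the IGF2BPs had 16 of 20, 4 of 9 and 5 of 14 genes with a row. Between stages 1 gene was called in each. It was higher at Es22 on the FOXO and growth hormone lists and lower on the last, beside 2.66% and 0.469% of all rows. TXNIP, an arrestin-like protein that FOXO factors can induce, had 306 CPM (dorsal) and 392 CPM (ventral) for Es22, against 131 CPM (dorsal) and 159.6 CPM (ventral) for Es19, and rose by 1.26 (standard error 0.14, limma adjusted p = 0.022). CISH, a feedback inhibitor of cytokine receptors induced by STAT5, had 10.3 CPM (dorsal) and 15.3 CPM (ventral) for Es22, against 3.41 and 4.34 CPM for Es19 in the same order, and rose by 1.48 (standard error 0.25, adjusted p = 0.041). The growth hormone receptor GHR had 2 rows, whose summed CPM was the highest of its list. The row with the lower p had a log2 difference of 0.59 (limma adjusted p = 0.10).

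HMGA2, a chromatin protein of embryonic growth that in mammals raises IGF2BP2 expression, had 6.53 CPM in dorsal Es22 dermis and 9.49 CPM in ventral Es22 dermis, against 38.2 CPM (dorsal) and 29.6 CPM (ventral) for Es19. It fell by 1.96 on the log2 scale (standard error 0.27, limma adjusted p = 0.028). This was the direction of IGF2BP3 and the opposite of that of IGF2 (log2 difference 0.74), neither of which was called. IGF2BP2 itself had no row. ELAVL1, the highest of its list, ranged from 84.1 to 95.6 CPM. The calls of PAPPA2, PRSS23, HTRA3, TXNIP, CISH and HMGA2 were each lost under 5 to 7 of 12 alternatives, among them the fit without region as a term and the fits without either Es22 library, with the highest adjusted p from 0.30 to 0.51. Leaving out either Es19 library also ended each call except that of HTRA3, which held without ventral Es19 dermis. The log2 difference of HTRA3 was 1.09 without dorsal Es19 dermis and 3.14 without ventral Es19 dermis, and that of PRSS23 was 0.66 without dorsal Es22 dermis.

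**Figure D5:**
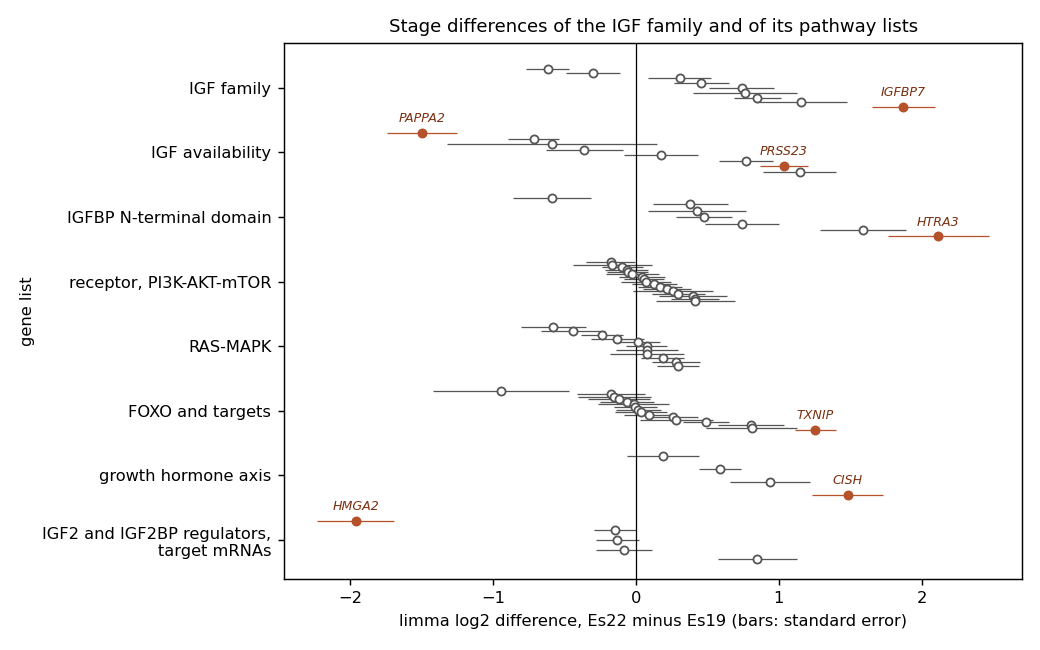
Log2 difference between stages in limma, Es22 minus Es19, for the 9 family members and for each gene with a row on 7 lists around the family. Points are genes, bars are standard errors, and brown named points are those with an adjusted p under 0.05. A gene with 2 rows is shown by the row with the lower p. IGFBP7, PRSS23, HTRA3, TXNIP and CISH lie to the right and PAPPA2 and HMGA2 to the left, with 0 called among receptor, PI3K-AKT-mTOR and RAS-MAPK genes.

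Genes whose levels over the 4 libraries ran most like those of IGF2 were sought among 6674 other rows with a gene symbol and a mean of at least 5 CPM, by the Euclidean distance between profiles of log2(CPM + 1) centred on their means. The 5 nearest were LOX (distance 0.092), FAM20A (0.095), GATA1 (0.10), SLC9A3R2 (0.12) and IL34 (0.12). LOX, the lysyl oxidase that crosslinks collagen, had 357 CPM in dorsal Es22 dermis and 419 CPM in ventral Es22 dermis, against 198 CPM (dorsal) and 241 CPM (ventral) for Es19. GATA1, on the list of red blood cell markers, had 14.3 CPM (dorsal) and 18.5 CPM (ventral) for Es22, against 7.97 and 10.5 CPM for Es19. For IGFBP7 the 5 nearest were PTGS2 (0.36), GGT5 (0.42), PTH2R (0.42), OLFML1 (0.44) and ENTPD2 (0.44), further away than those of IGF2. PTGS2, a prostaglandin synthase, had 22.7 CPM (dorsal) and 32.7 CPM (ventral) for Es22, against 7.74 and 6.99 CPM for Es19 in the same order. These distances over 4 libraries are a description only.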

How the data were processed

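Dermis RNA of dorsal and ventral overlapping scales at Es22 and Es19 was sequenced from TruSeq libraries with single reads. What the authors deposited is 1 table of transcript records whose CPM values carry TMM normalization, a normalized signal whose column sums therefore vary (deposited values, not raw counts). STAR is the aligner of the study's methods, whereas the submitters' processing notes give HTSeq, edgeR, Partek (version 3) and TopHat2 (version 2.1.0). Which annotation version was used is not given in these sources. The methods speak of replicate samples, but by the labels each region and stage has 1 library, and whether replicates were pooled is not stated.

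Reads were recovered from each column through the value of 1 read. Of the values above 0, 99.8% to 99.95% were whole within 0.05, and the implied TMM factors were 0.787 to 1.27. Before TMM the second-highest library of every row had 1.03 CPM or more, so lower genes are outside what could be analysed. How reads shared by similar transcripts were counted is not described.

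Rows averaging 1 CPM or more were tested with limma (version 3.58.1, trend in the prior variance) on log2(CPM + 1), adjusted by Benjamini-Hochberg over all rows. Alternatives were edgeR (version 4.0.16) on recovered reads, pseudocounts of 0.1 or 5, dropping the filter or raising it to 5 CPM, 2 rescalings, the compared term alone, a 4-fold rule and each library left out. In simulated reads with 200 of 10236 rows changed by stage, limma found 199 of the 4-fold changes at a dispersion of 0.01 and 132 at 0.1, and 167 and 0 of the 2-fold changes. False calls numbered 10 and 5 with the 4-fold changes and 1 and 0 with the 2-fold changes. Every simulated row had the same dispersion and the same stage change in both regions, so recovery in the real libraries may differ. Software was R 4.3.3 and Python 3.11.15 with pandas 2.3.3, scipy 1.17.1 and matplotlib 3.10.9.

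All members are named. From the lists around the family, genes called or past the 2-fold rule and the highest of each list are named, and a few others were picked with their values in view. Some results this rule covers are not reported here. The members and lists were chosen with earlier results of these data known. Neighbouring genes were read from RefSeq's table of rAllMis1, whose coordinates are not used. Chicken libraries were not analysed here.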

Additional observations from a re-analysis of the deposited data

Results flagged for a closer look

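For 5 members the difference between dorsal and ventral dermis had opposite signs at Es22 and Es19, as did 50.2% of all rows, so the count is near the background. With 1 library in each place, the change with stage was not tested. It was greatest for IGFBP2, with log2 differences, dorsal over ventral, of 0.13 at Es22 and -1.43 at Es19, which lie 1.56 apart. Seen between stages, the same values put IGFBP2 at -0.015 in ventral and 1.54 in dorsal dermis, a change of -1.56 from dorsal to ventral. IGF1 had differences of 0.38 at Es22 and -0.54 at Es19, 0.92 apart, on few reads. IGFBP7 had -0.21 at Es22 and 0.50 at Es19, a change of -0.70, with counting intervals on opposite sides of a ratio of 1. IGF2R had 0.31 at Es22 and -0.11 at Es19, 0.42 apart, and IGFBP5 had 0.044 and -0.12, 0.17 apart, with both intervals including a ratio of 1.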

How the results depend on the processing

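The 6 members higher and the 2 lower at Es22 in both regions kept their direction under pseudocounts of 0.1 and 5, both rescalings and without a filter, while a mean of at least 5 CPM left out IGF1. Over all rows limma called 24 between regions and 320 between stages. These counts were 40 and 486 with a pseudocount of 0.1, 8 and 144 with a pseudocount of 5, 0 and 89 after rescaling by the upper quartile, 0 and 0 with the compared term only (256 and 1973 at an unadjusted p under 0.05), and 45 and 515 in edgeR. Leaving out a library, where 3 libraries allow the compared term only, gave 0 to 0 between regions and 0 to 75 between stages. The number of members called between stages was 2 with a pseudocount of 0.1 and in edgeR (IGFBP7 and IGF2R), 0 with the compared term only, and 0 to 1 without a library.

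By the 2-fold rule, 61 rows were higher and 48 lower in dorsal dermis, and 334 were higher and 55 lower at Es22. A pseudocount of 0.1 gave 113 and 92 between regions and 102 lower at Es22, and 2 members higher at Es22, IGF1 being added. A pseudocount of 5 gave 27 and 17 between regions, and 162 and 23 between stages. A 4-fold rule gave 12 and 10 between regions, 52 and 5 between stages and 0 members.

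No stage difference of a member changed sign under an alternative, but leaving out dorsal or ventral Es19 dermis gave 0.050 or 1.48 for IGFBP2, 0.88 or 0.038 for IGFBP3 and 0.13 or 0.48 for IGFBP4. Region differences did change sign, and none of these was called. Leaving out each library in turn gave, dorsal over ventral in log2, -0.89 to 0.73 for IGF1, -0.67 to 0.13 for IGF2, -0.55 to 0.14 for IGF2BP3, -0.43 to 0.63 for IGF2R, -1.42 to 0.12 for IGFBP2, -0.43 to 0.032 for IGFBP4, -0.23 to 0.15 for IGFBP5 and -0.97 to 1.26 for IGFBP7. That of IGFBP3 kept its sign, at 0.19 to 0.93. IGF1 also turned to 0.013 with a pseudocount of 5. In these fits a missing library leaves region and stage partly confounded.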

Other observations

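For a few genes on the lists around the family, 1 library stood furthest from the rest. Their choice followed a look at the values, so they carry no test. STC1, a secreted inhibitor of PAPPA proteases, had 5.57 CPM (dorsal) and 2.89 CPM (ventral) for Es22, against 2.09 CPM (dorsal) and 17.7 CPM (ventral) for Es19, the last from 261 reads. FOXO6 had 2.79 CPM (dorsal, 29 reads) and 12.7 CPM (ventral) for Es22, against 13.6 CPM (dorsal) and 12.1 CPM (ventral) for Es19. CTGF stood at 126 CPM in ventral Es22 dermis, but dorsal Es22 dermis, at 53.1 CPM, also lay above Es19, at 26.7 CPM (dorsal) and 26.4 CPM (ventral). The sum over 21 stress-response and immediate-early genes with a row was also highest in ventral Es22 dermis, at 5049.9 CPM, against 2856 to 3282 CPM in the other libraries. Much of each sum came from HSPA5 (896 to 1089.5 CPM) and HSPA8 (985 to 1175 CPM), which changed little. The list's median log2 difference, Es22 over Es19, was 0.76 in dorsal and 1.19 in ventral dermis, so dorsal Es22 dermis was raised as well.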
